A study of Mus musculus with 12 samples.

Results

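Matrix metalloproteinases (Mmp), membrane-anchored ADAM proteases (Adam), secreted ADAMTS proteases (Adamts) and the tissue inhibitors of metalloproteinases (Timp) were followed in fibroblast cultures from 2 mouse fat depots. The members were taken by gene symbol alone: every gene on the array named Mmp, Timp, Adam or Adamts followed by a number, with a final a or b allowed for Mmp. This gave 51 of the 12393 genes measured, made up of 22 Adam, 7 Adamts, 18 Mmp and 4 Timp genes. The 12 arrays came from 4 groups of 3, namely GFP+ and GFP- fibroblasts of inguinal (subcutaneous) fat and GFP+ and GFP- fibroblasts of epididymal (visceral) fat. All donors were male Zfp423-GFP transgenic mice of mixed FVB and C57BL/6 background aged 6 to 8 weeks, so the GFP- cells carried the transgene too. By its name the transgene marks cells that express Zfp423, a zinc-finger factor of preadipocytes; the labels do not give the sequence that drives it. Stromal vascular cells were sorted by GFP out of culture, grown again in DMEM/F12 with 10% fetal bovine serum, and taken while still dividing, without an agent that induces fat cells.

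Matrix metalloproteinases are zinc endopeptidases that are made as inactive precursors and cut collagen, gelatin, elastin and other matrix and cell-surface proteins. ADAMs sit in the plasma membrane, where the catalytically active ones release growth factors, cytokine receptors and adhesion proteins; ADAMTS proteases are secreted and cut proteoglycans or process matrix proteins. TIMPs bind the active site of these enzymes, and in fat the balance between enzymes and inhibitors accompanies the remodelling of matrix around growing fat cells and vessels.

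A block of 9 of the 18 Mmp genes lay on chromosome 9 in the RefSeq gene table, in the order Mmp13, Mmp12, Mmp1b, Mmp3, Mmp1a, Mmp10, Mmp8, Mmp20 and Mmp7. Of these, Mmp13, Mmp12, Mmp3 and Mmp10 were above the array background in some group. The RefSeq promoter windows of Mmp13, Mmp12 and Mmp3 are shown because these neighbouring genes fell into different patterns over the 4 groups: Mmp13 and Mmp12 were above background in inguinal GFP- cells alone, and Mmp3 in every group but epididymal GFP- cells. Each window runs 5′ to 3′ from 250 bases before to 50 bases after the start given by RefSeq, on the plus strand of build GRCm38.p6, at chr9:7272264-7272563 for Mmp13, chr9:7344147-7344446 for Mmp12 (the first of 2 starts) and chr9:7445572-7445871 for Mmp3. Capitals mark matches, on either strand, to the AP-1 motif TGANTCA, the PEA3 (Ets) motif AGGAAG, which reads CTTCCT on the minus strand, and the TATA box letters TATAAA; no match overlapped another.
Mmp13: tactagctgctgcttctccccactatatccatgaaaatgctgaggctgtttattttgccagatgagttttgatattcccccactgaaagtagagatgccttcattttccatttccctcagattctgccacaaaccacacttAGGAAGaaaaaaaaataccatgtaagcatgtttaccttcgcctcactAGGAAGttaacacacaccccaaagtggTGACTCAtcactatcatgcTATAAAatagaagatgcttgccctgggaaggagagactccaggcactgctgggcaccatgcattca
Mmp12: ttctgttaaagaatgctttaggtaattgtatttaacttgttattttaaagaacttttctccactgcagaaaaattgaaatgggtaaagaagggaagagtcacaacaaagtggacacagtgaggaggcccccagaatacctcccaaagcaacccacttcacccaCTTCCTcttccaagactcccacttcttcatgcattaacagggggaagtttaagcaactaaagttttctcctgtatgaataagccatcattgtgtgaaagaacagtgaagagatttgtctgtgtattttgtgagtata
Mmp3: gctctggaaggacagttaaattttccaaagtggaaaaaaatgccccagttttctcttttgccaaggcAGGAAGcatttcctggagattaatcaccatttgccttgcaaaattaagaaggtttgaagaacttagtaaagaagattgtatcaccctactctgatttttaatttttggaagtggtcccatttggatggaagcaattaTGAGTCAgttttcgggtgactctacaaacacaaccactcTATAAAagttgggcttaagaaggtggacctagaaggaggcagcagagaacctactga
In the Mmp13 window the AP-1 letters began at base -35 from the start, the PEA3 letters at -109 and -62, and the TATA box letters at -16. The Mmp3 window held AP-1 at -46, PEA3 at -183 and the TATA box letters at -7. The Mmp12 window held PEA3 letters at -87 on the minus strand, and the AP-1 and TATA box letters are not in this window. Windows were found for 28 of the 51 members, and 8 of them (28.6%) held the AP-1 motif, against 7.94% of all 27018 promoter windows of that length. The 8 were Adam25, Mmp10, Mmp13, Mmp1a, Mmp1b, Mmp20, Mmp3 and Mmp7, and all but Adam25 lie in the chromosome 9 block. Of the 19 windows of members above background in some group, 3 held it (15.8%), those of Mmp10, Mmp13 and Mmp3. PEA3 letters stood in 15 of the 28 (53.6%) against 35.1% of all windows, and TATA box letters in 9 (32.1%) against 14.2%. Among the 19 above background these shares were 52.6% and 21.1%. A match describes the sequence and is not a measured binding site.

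Signals are deposited array intensities on a linear scale, given as the mean ± SD of 3 arrays. Log2 fold changes are differences in mean log2(signal + 16), with the SE and Benjamini-Hochberg adjusted p of a limma fit over all 12393 genes; this scale understates the change of dim genes. Array medians lay between 347.3 and 371.2, and arrays of the same group correlated at 0.993 to 0.995 over all genes. A member was called near background in a group where its mean did not exceed the 95th percentile of 31 olfactory receptor genes, a signal of 53.6 and 53.5 in inguinal GFP+ and GFP- cultures and 78.7 and 76.7 in epididymal GFP+ and GFP- cultures. Of 12 genes listed as fibroblast markers, 11 were measured and none was near background in any group. Of 10 mural cell genes at most 1, Rgs5, was near background in a group. The fibroblast markers thus do not single out the labelled cell type. Of 8 fat-cell genes 6 were measured, and Adipoq, Cidec, Lep and Retn were near background in all 4 groups. The other 2, Fabp4 and Lpl, were well above it and higher in GFP+ cells of both depots, Fabp4 by 1.81 and 4.30 and Lpl by 1.31 and 0.41 on the log2 scale in inguinal and epididymal cultures. The part of cells with these transcripts in the GFP contrasts of the proteases was not tested. Nothing in the labels says that the 3 replicates of a group were separate animals or dishes, so every p-value refers to the spread among these arrays, which may be technical. Fewer cells of a type and less RNA per cell cannot be told apart in such bulk RNA.

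Of the 51 members, 33 were above background in at least 1 group and 18 were near background in all 4. In the inguinal comparison, 6 members were higher and 9 lower in GFP+ than in GFP- cells at a limma adjusted p under 0.05 (29.4% of members; 12.6% of all genes, 5.26% higher and 7.29% lower). In the epididymal comparison, 9 were higher and 11 lower (39.2%; 41.9% of all genes, 21.5% higher and 20.3% lower). The GFP contrast differed between the depots for 18 members (35.3%; 34.8% of all genes, 16.1% and 18.7% in the 2 directions), with 6 more positive in inguinal and 12 more positive in epididymal cultures; after centring each array on its median the split was 7 and 9. Between depots, 6 members were higher and 20 lower in inguinal than in epididymal GFP+ cells (51% of members; 50.8% of all genes, 23.6% higher and 27.2% lower). In GFP- cells, 10 were higher and 17 lower in inguinal cultures (52.9%; 53.7% of all genes, 27.4% higher and 26.3% lower). The total shares in the last 4 comparisons, both directions together, were close to the background of all genes. In both depot comparisons the members leaned further to lower in inguinal cells than all genes did. They split 6 higher and 20 lower in GFP+ cells, where 23.6% and 27.2% of all genes were called. In GFP- cells the split was 10 and 17, against 27.4% and 26.3%. Median log2 fold changes of the members were -0.03, -0.00, -0.14, -0.24 and -0.18 in that order, against -0.01, 0.01, -0.02, -0.04 and -0.02 over all genes. The comparisons reuse the same 12 arrays, so only the 2 GFP contrasts, and only the 2 depot contrasts, are free of shared arrays.

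**Figure D1:**
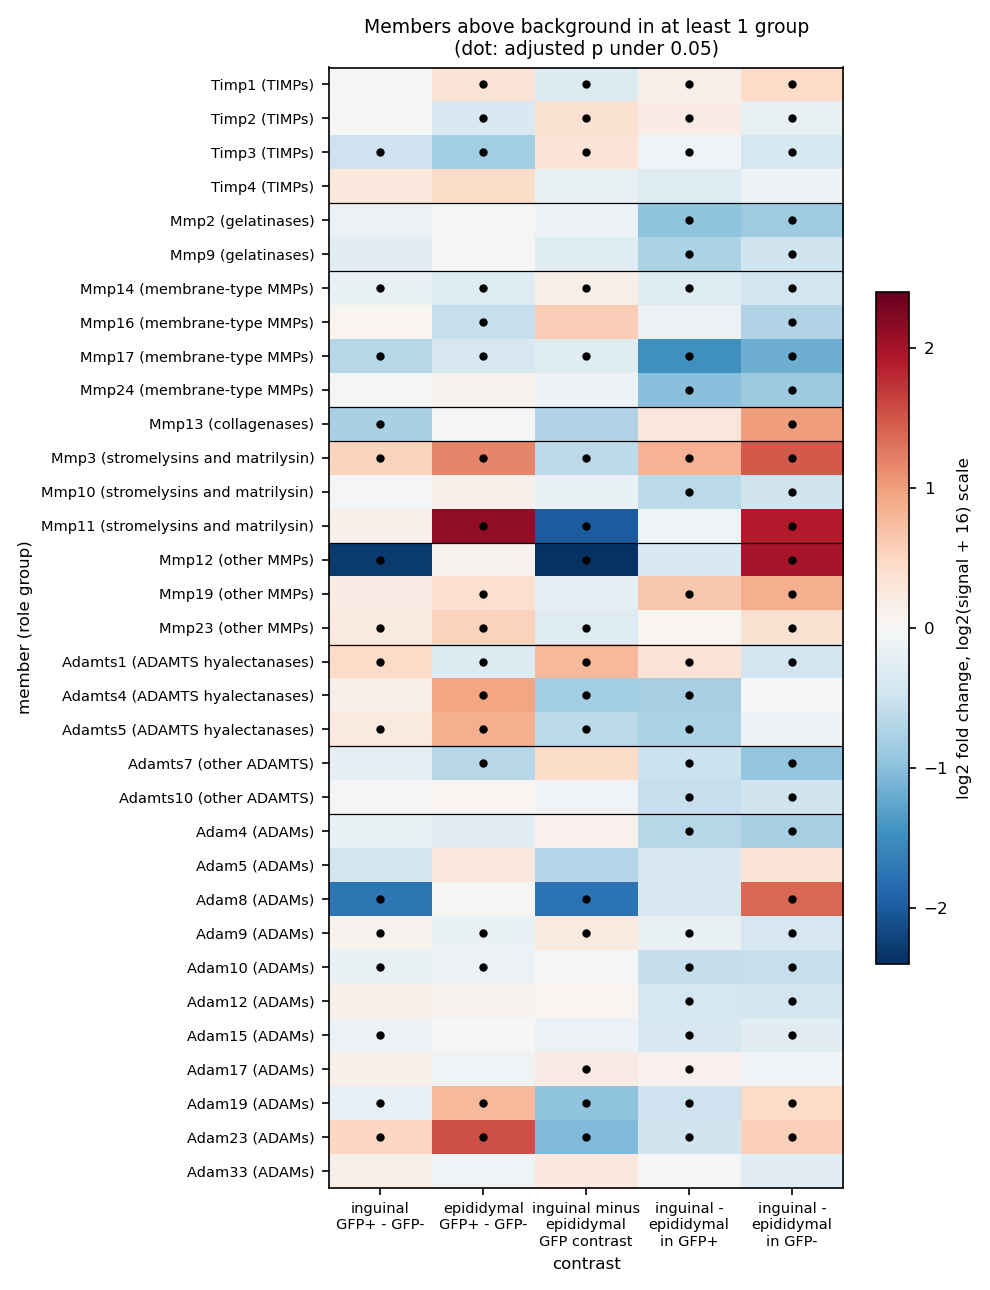
Log2 fold changes, on the log2(signal + 16) scale, of the 33 members above background in at least 1 group (rows, by role) in the 5 contrasts (columns). Red is higher and blue lower in the group named first, and a dot marks an adjusted p under 0.05; the deepest colours of the GFP contrasts are Mmp12 at -2.29 in inguinal and Mmp11 at 2.13 in epididymal cultures.

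Some members moved the same way with the sort in both depots. Adam23, Adamts5, Mmp23 and Mmp3 were higher in GFP+ cells of each depot, 7.84% of members against 2.3% of all genes. Adam10, Mmp14, Mmp17 and Timp3 were lower in GFP+ cells of each depot, again 7.84% of members, against 2.7% of all genes. Adam19, Adam9 and Adamts1 were called in opposite directions in the 2 depots, 5.88% of members against 4.07% of all genes. These 3 shares rest in part on calls that some alternatives lost. They were the inguinal calls of Adamts5, Mmp3 and Adam9 and both calls of Adam10. Between depots, 14 members were lower in inguinal than in epididymal cells in both sorted fractions, 27.5% of members against 16% of all genes, and Mmp19, Mmp3 and Timp1 were higher in both, 5.88% against 16.1%. Of the 14, Adam15 and Mmp24 lost the call in GFP- cells, and Mmp9 that in GFP+ cells, for the mean of their probe sets. Timp3 lost the call in GFP+ cells after median centring. The share of 27.5% thus depends on the processing.

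The TIMP inhibitors differed from each other in how they followed the sort. Timp3, which is held in the matrix by sulfated glycans and inhibits ADAM17 and several ADAMTS proteases as well as MMPs, was lower in GFP+ cells of both depots. Its signal was 13571 to 13881 on the inguinal GFP+ arrays and 19138 to 19596 on the GFP- arrays, a log2 fold change of -0.49 ± 0.02 (SE; limma adjusted p = 4.39e-10). In epididymal cultures it was 14200 to 14767 in GFP+ and 25647 to 26011 in GFP- cells, a log2 fold change of -0.83 ± 0.02 (limma adjusted p = 3.44e-14). The GFP+ and GFP- arrays did not overlap in either depot, and the contrast was larger in epididymal cells (interaction 0.33, limma adjusted p = 2.77e-07). The other Timp3 probe sets moved further in the same direction, from -0.63 to -1.05 in inguinal and from -1.12 to -1.94 in epididymal cultures, so that the mean over probe sets was -1.28 there with an interaction of 0.56. Depots differed little in GFP+ cells (-0.08, limma adjusted p = 0.0054), and that call was lost after median centring (-0.00, limma adjusted p = 0.97).

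Timp1, a secreted inhibitor of most MMPs, showed no called difference with the sort in inguinal cultures, at 29958 ± 634 in GFP+ and 29784 ± 788 in GFP- cells (log2 fold change 0.01 ± 0.02, limma adjusted p = 0.885). In epididymal cultures it was higher in GFP+ cells, at 27501 ± 435 against 21776 ± 276 (0.34 ± 0.02, limma adjusted p = 7.67e-09), with no overlap between arrays. Timp2, an inhibitor that also takes part in the activation of pro-MMP2 by MMP14, moved the other way. It was 15254 ± 318 in epididymal GFP+ and 19582 ± 89.8 in GFP- cells (-0.36 ± 0.03, limma adjusted p = 8.82e-09), and 17319 ± 395 against 17350 ± 513 in inguinal cells (limma adjusted p = 0.973). Of the 5 other Timp2 probe sets, 4 gave -0.53 to -0.89 in epididymal cultures and the dimmest gave -0.02; their mean with the brightest was -0.56, and gave a call in inguinal cultures, higher in GFP+ cells at 0.14 (limma adjusted p = 0.0378). Timp4, the inhibitor with the narrowest tissue range, was dim, with group means of 70.8 to 110 and no called contrast.

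**Figure D2:**
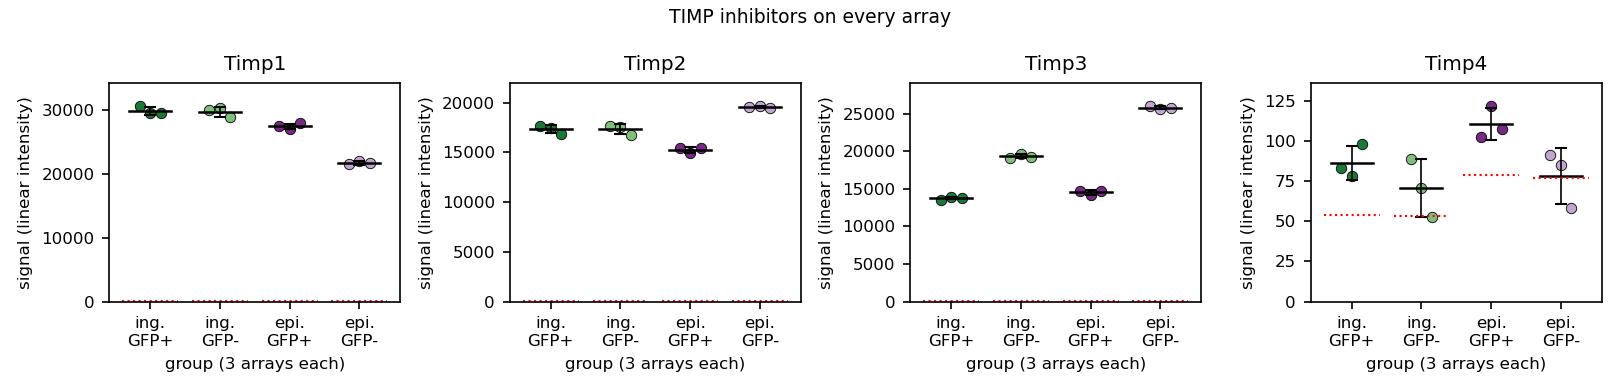
Signal of the 4 TIMP genes on each array (points; horizontal bar, mean; whiskers, SD of 3 arrays) in the 4 groups, on linear axes from 0; red dotted lines mark the background signal of each group. Timp3 lies between 13571 and 14767 in GFP+ cells of both depots and from 19138 up in GFP- cells, while Timp1 is lowest in epididymal GFP- cells and Timp2 highest there.

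Of the 6 gelatinases and membrane-type MMPs measured, 5 (Mmp2, Mmp9, Mmp14, Mmp17 and Mmp24) were lower in inguinal than in epididymal cells of both sorted fractions, as were 16% of all genes. Mmp2, the gelatinase of fibroblasts, had a signal of 8104 ± 785 and 8882 ± 337 in inguinal GFP+ and GFP- cells and of 15807 ± 306 and 16059 ± 379 in epididymal ones. It was lower in inguinal cells by log2 fold changes of -0.97 ± 0.05 in GFP+ (limma adjusted p = 3.3e-10) and -0.85 ± 0.05 in GFP- cells (limma adjusted p = 5.87e-10). The inguinal GFP contrast of Mmp2 was not called (-0.14, limma adjusted p = 0.106); it was called without inguinal GFP+ replicate 3 (-0.19, limma adjusted p = 0.0289) and for the mean of its probe sets (-0.20, limma adjusted p = 0.0136). Mmp9, the inducible gelatinase of leukocytes and other cells, was also lower in inguinal cells, at 190.7 ± 44.4 against 332 ± 51.4 in GFP+ (-0.76 ± 0.14, limma adjusted p = 0.000271) and 229 ± 12 against 325 ± 21.4 in GFP- cells (-0.47, limma adjusted p = 0.00904). A dimmer second Mmp9 probe set went the other way in GFP+ cells (0.75), and the mean of both gave -0.00 (limma adjusted p = 0.986). Without inguinal GFP+ replicate 3 the inguinal GFP contrast of Mmp9 was called as well (-0.44, limma adjusted p = 0.0401).

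Mmp14, the membrane-type enzyme that activates pro-MMP2 at the cell surface, was lower in GFP+ than in GFP- cells of each depot. Its signal was 14040 ± 386 against 15714 ± 152 in inguinal cells (-0.16 ± 0.03, limma adjusted p = 0.000749) and 17428 ± 675 against 21573 ± 91.3 in epididymal cells (-0.31, limma adjusted p = 1.29e-07). Inguinal cells were below epididymal cells in both fractions, by -0.31 in GFP+ (limma adjusted p = 1.48e-07) and -0.46 in GFP- cells (limma adjusted p = 6.81e-10), and by -0.52 and -0.72 for the mean of its probe sets.

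Mmp17, a membrane-type MMP anchored by a lipid tail, showed both differences at once. Its signal was 436, 451 and 409.8 on the inguinal GFP+ arrays, 751, 702 and 662 on inguinal GFP-, 1253.5, 1254 and 1168 on epididymal GFP+ and 1518, 1595 and 1714 on epididymal GFP- arrays. The 4 groups did not overlap, rising in that order. GFP+ cells were lower by -0.69 ± 0.06 in inguinal (limma adjusted p = 1.7e-06) and -0.39 ± 0.06 in epididymal cultures (limma adjusted p = 0.000106). Inguinal cells were lower by -1.47 ± 0.06 in GFP+ (limma adjusted p = 2.97e-11) and -1.17 ± 0.06 in GFP- cells (limma adjusted p = 1.67e-10). The difference between the 2 GFP contrasts (-0.30 ± 0.09, limma adjusted p = 0.0168) was not called without inguinal GFP- replicate 1 (-0.25, limma adjusted p = 0.0527) or after median centring (-0.22, limma adjusted p = 0.0651).

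Mmp24, a membrane-type MMP best known from the nervous system, was 109, 104 and 138 in inguinal GFP+ and 115, 96.0 and 153 in inguinal GFP- cells. In epididymal cells it was 275, 272 and 207 in GFP+ and 203, 270.0 and 231 in GFP- cells. The depots did not overlap, whereas the sorted fractions did in each depot. Inguinal cells were lower by -1.01 ± 0.17 in GFP+ (limma adjusted p = 0.000133) and -0.88 ± 0.17 in GFP- cells (limma adjusted p = 0.000358). A second, dim Mmp24 probe set gave 0.09 and 0.31 with no call, and the mean of both gave -0.46 in GFP+ (limma adjusted p = 0.0159) and -0.29 in GFP- cells (limma adjusted p = 0.113). Mmp16, another transmembrane MMP, was dim at 61.5 to 111 and near background in epididymal GFP+ cells; its epididymal call (-0.55 ± 0.18, limma adjusted p = 0.0215) was lost without epididymal GFP+ replicate 1 or 2 or GFP- replicate 2 (limma adjusted p 0.0518 to 0.0755). Mmp16 was lower in inguinal than in epididymal GFP- cells (-0.73, limma adjusted p = 0.00277; -0.48 with 64 in place of 16 as the constant added before the log).

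Markers of several cell types moved with the depot. Of 14 mesothelial genes, 11 were measured; 8 were lower and 2 higher in inguinal than in epididymal GFP+ cells, and 9 were lower and 1 higher in GFP- cells. Their summed signal was 1969 to 2326 and 1666 to 1810 on the inguinal GFP+ and GFP- arrays, and 7444 to 7715 and 40393 to 43118 on the epididymal ones. Msln, Upk3b, Krt8 and Gpm6a were near background in both inguinal groups. Of 10 mural cell markers, 7 were lower and 1 higher in inguinal GFP+ cells, and 3 lower and 5 higher in GFP- cells. Among 11 measured fibroblast markers, 3 were lower and 6 higher in each fraction. Among 9 endothelial markers, 4 were lower and 1 higher in GFP+ cells, and 2 lower and 1 higher in GFP- cells. Over all genes 50.8% and 53.7% were called in GFP+ and GFP- cells. The part of any of these cell types in the depot differences of the proteases was not tested.

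**Figure D3:**
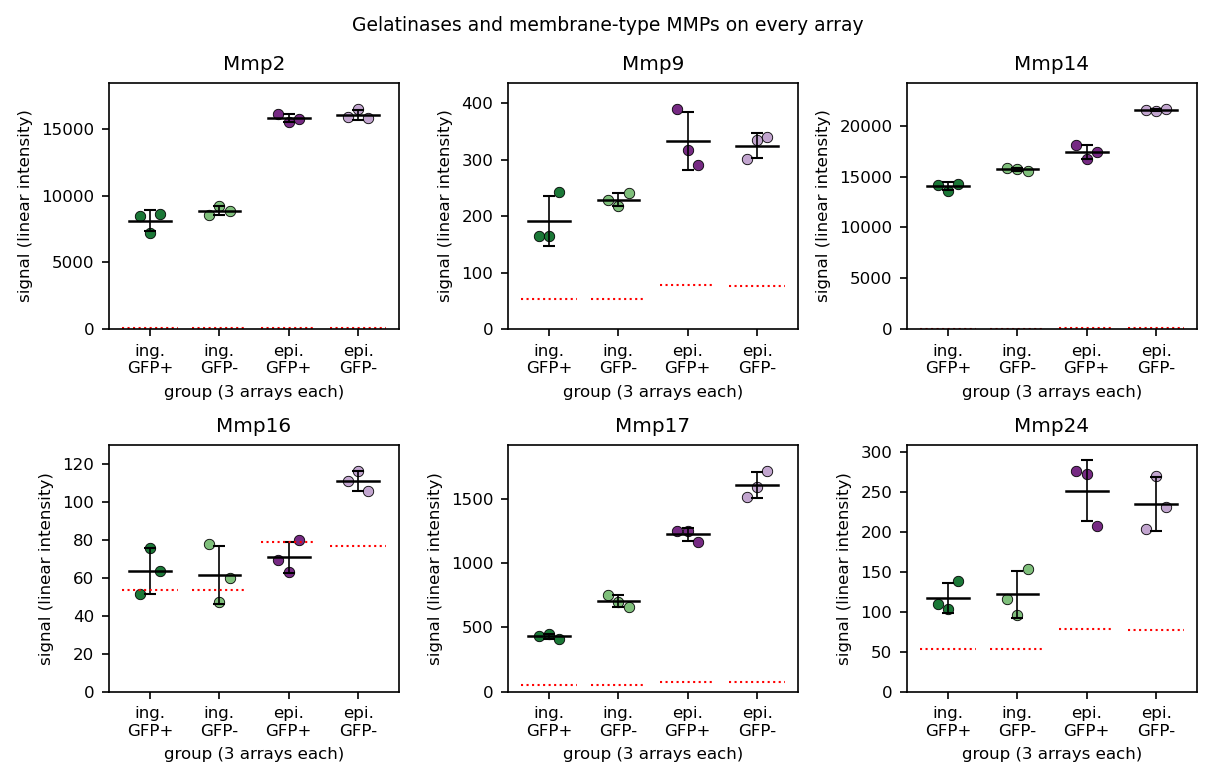
Signal of Mmp2, Mmp9, Mmp14, Mmp16, Mmp17 and Mmp24 on each array (points; horizontal bar, mean; whiskers, SD of 3 arrays), on linear axes from 0, with the background of each group as red dotted lines. Mmp2, Mmp9, Mmp14, Mmp17 and Mmp24 are lower on every inguinal array than on every epididymal array. Mmp14 and Mmp17 are also lower in GFP+ than in GFP- cells of each depot.

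A different set was high in inguinal GFP- cultures. Mmp12, the elastase of macrophages, had a signal of 152, 214 and 180.0 on these arrays. On the inguinal GFP+ arrays it was 27.1, 21.5 and 24.0, on epididymal GFP+ 36.6, 28.1 and 46.1, and on epididymal GFP- 34.1, 42.4 and 25.6. The inguinal GFP- arrays were above the 9 others, and the 3 other groups were near background. The log2 fold change was -2.29 ± 0.20 for inguinal GFP+ against GFP- (limma adjusted p = 8.24e-07), and 0.08 in epididymal cultures (limma adjusted p = 0.806), with an interaction of -2.37 ± 0.28 (limma adjusted p = 5e-06). Inguinal GFP- cells were also above epididymal GFP- cells (1.99 ± 0.20, limma adjusted p = 3.08e-07). Because the lower groups are dim the size depends on the added constant: with 64 in place of 16 these 3 called differences were -1.47, -1.51 and 1.32.

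Adam8, a catalytically active ADAM first known from leukocytes, was high in the same group. It was 243, 305 and 285 in inguinal GFP- cells, against 75.1, 60.9 and 80.4 in inguinal GFP+, 100.1, 124 and 76.9 in epididymal GFP+ and 88.1, 99.5 and 101 in epididymal GFP- cells. The inguinal GFP- arrays again lay above all 9 others. The inguinal GFP contrast was -1.74 ± 0.17 (limma adjusted p = 2.2e-06), the epididymal one 0.04 (limma adjusted p = 0.9) and the interaction -1.77 ± 0.23 (limma adjusted p = 1.59e-05). Between depots, Adam8 was higher in inguinal GFP- cells (1.38 ± 0.17, limma adjusted p = 2.42e-06). In GFP+ cells the depot difference (-0.39, limma adjusted p = 0.0624) was called only without epididymal GFP+ replicate 3 (-0.54, limma adjusted p = 0.0142) or with weakly detected genes left out (limma adjusted p = 0.0478).

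Mmp13, the main interstitial collagenase of rodents, was 92.2, 109 and 97.7 in inguinal GFP- cells and near background elsewhere. It read 42.9, 50.95 and 62.9 on inguinal GFP+, 59.65, 30.9 and 33.1 on epididymal GFP+ and 28.3, 53.9 and 46.4 on epididymal GFP- arrays. The inguinal GFP- arrays did not overlap the others. Its inguinal GFP contrast (-0.77 ± 0.23, limma adjusted p = 0.034) was lost when either of inguinal GFP+ replicates 1 and 2 or any inguinal GFP- replicate was left out (limma adjusted p 0.0645 to 0.132). It was also lost without a variance trend (limma adjusted p = 0.0543). With 1 as the added constant it was -0.93 and not called (limma adjusted p = 0.0644), and with 64 it was -0.50 and called (limma adjusted p = 0.0137). Mmp13 was higher in inguinal than in epididymal GFP- cells (1.00 ± 0.23, limma adjusted p = 0.00127; 0.62 with 64 as the added constant).

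Most macrophage and leukocyte markers moved with these 3 genes in the inguinal sort, but not in the epididymal one. All 16 listed markers were measured, and in inguinal cultures 12 were lower in GFP+ than in GFP- cells and 1, Cd53, was higher. Their summed signal was 6255 to 6811 in inguinal GFP+, 13751 to 16008 in inguinal GFP-, 3943 to 4241 in epididymal GFP+ and 3726 to 4195 in epididymal GFP- arrays. Ptprc, C1qa, C1qb, C1qc, Tyrobp, Ctss, Mpeg1, Fcer1g and Itgam were near background in inguinal GFP+ cells, and only Itgam was in inguinal GFP- cells. Between depots, 13 of the 16 were higher and 1, Adgre1, lower in inguinal than in epididymal GFP- cells. Cd14 was not called there, at 691 in inguinal and 784 in epididymal GFP- cells. In epididymal cultures 8 of the 16 were lower and 2 higher in GFP+ than in GFP- cells. None of Mmp12, Adam8 and Mmp13 had a called contrast in that comparison. Of 10 mural cell markers, 1 was higher and 6 lower in inguinal GFP+ than GFP- cells, with summed signals of 98055 to 99914 against 106150.5 to 107555. The part of either cell type in the differences of Mmp12, Adam8 and Mmp13 was not tested.

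**Figure D4:**
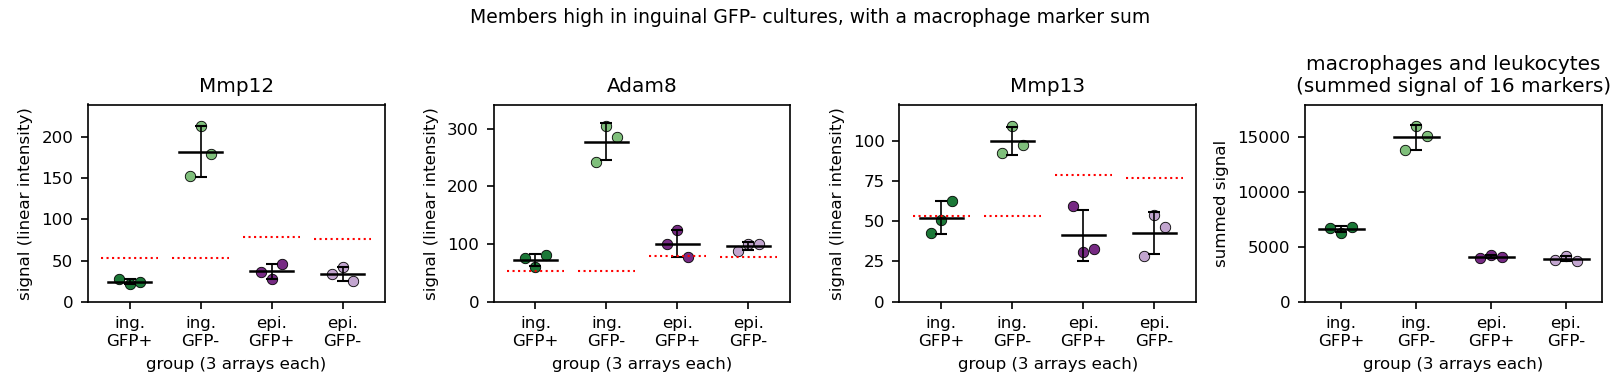
Signal of Mmp12, Adam8 and Mmp13, and the summed signal of 16 macrophage and leukocyte markers, on each array (points; horizontal bar, mean; whiskers, SD of 3 arrays), on linear axes from 0, with background as red dotted lines for the genes. In each panel the 3 inguinal GFP- arrays lie above the 9 others. The sum includes Cd53, which was higher in inguinal GFP+ than in GFP- cells.

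A further set separated the epididymal fractions. Mmp11, a stromelysin of stromal fibroblasts that is activated inside the cell by furin-type convertases, had a signal of 1010.2, 1162 and 1071 on the epididymal GFP- arrays. It was 4669, 4719 and 4911 in epididymal GFP+, 4740.5, 3783 and 4965 in inguinal GFP+ and 3941, 4085 and 4281 in inguinal GFP- cells. The epididymal GFP- arrays lay below the 9 others, which overlapped. Mmp11 was higher in epididymal GFP+ than GFP- cells by 2.13 ± 0.08 (limma adjusted p = 1.57e-12), with an interaction of -2.00 ± 0.11 (limma adjusted p = 4.72e-10), and higher in inguinal than epididymal GFP- cells by 1.91 ± 0.08 (limma adjusted p = 3.61e-12). The inguinal GFP contrast was not called (0.12 ± 0.08, limma adjusted p = 0.375), but was without inguinal GFP+ replicate 2 (0.24, limma adjusted p = 0.00434).

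Mmp3 (stromelysin 1), which cuts many matrix proteins and activates other pro-MMPs, was higher in GFP+ cells of each depot and higher in inguinal than in epididymal cells. Its signal was 311, 244 and 300.2 in inguinal GFP+ and 153, 197 and 227 in inguinal GFP- cells. In epididymal cells it was 151, 174 and 131 in GFP+ and 50.4, 60.7 and 63.7 in GFP- cells, the last of which were near background. GFP+ and GFP- arrays did not overlap in either depot, whereas inguinal GFP- and epididymal GFP+ arrays did. The GFP contrast was 0.54 ± 0.16 in inguinal (limma adjusted p = 0.0348) and 1.17 ± 0.16 in epididymal cultures (limma adjusted p = 1.35e-05). The depot difference was 0.84 ± 0.16 in GFP+ (limma adjusted p = 0.000336) and 1.48 ± 0.16 in GFP- cells (limma adjusted p = 6.96e-07). The inguinal call was lost without inguinal GFP+ replicate 1 or 3 or inguinal GFP- replicate 1 or 2 (limma adjusted p 0.0769 to 0.179). It was also lost without a variance trend (limma adjusted p = 0.0541) and with only the groups compared in the fit (limma adjusted p = 0.0538). The interaction (-0.64 ± 0.22, limma adjusted p = 0.0381) was lost without inguinal GFP+ replicate 2, inguinal GFP- replicate 2 or 3, epididymal GFP+ replicate 1 or 2 or epididymal GFP- replicate 1 (limma adjusted p 0.0617 to 0.108), after median centring (-0.56), and with 64 as the added constant (-0.37).

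Mmp10 (stromelysin 2), a close relative of Mmp3, showed no called GFP contrast and the opposite depot difference. Its group means were 176 ± 11.4 and 182 ± 19.1 in inguinal GFP+ and GFP- cells and 284 ± 22.6 and 260 ± 24 in epididymal ones (depot difference -0.64, limma adjusted p = 0.000203, in GFP+ and -0.48, limma adjusted p = 0.00201, in GFP- cells). Mmp19, an MMP of vessels and fibroblasts, was higher in inguinal cells of both fractions, at 435 ± 70.8 against 271 ± 32.2 in GFP+ (0.65, limma adjusted p = 0.000225) and 379 ± 12.4 against 199 ± 14 in GFP- cells (0.88, limma adjusted p = 7.96e-06). Its epididymal GFP contrast (0.41 ± 0.12, limma adjusted p = 0.00942) was lost without epididymal GFP+ replicate 1 (0.32, limma adjusted p = 0.0531). Mmp23, a small membrane MMP without the usual prodomain switch, was higher in GFP+ cells of both depots, at 4960 ± 321 against 4211 ± 156 in inguinal (0.23 ± 0.04, limma adjusted p = 0.00194) and 4804 ± 68.4 against 3280 ± 139 in epididymal cultures (0.55, limma adjusted p = 3.85e-08). In GFP- cells Mmp23 was higher in inguinal than in epididymal cultures (0.36, limma adjusted p = 3.94e-06), and in GFP+ cells that difference was called after median centring (0.12, limma adjusted p = 0.0252).

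Adam23, a catalytically inactive ADAM that binds integrins and LGI proteins, was the ADAM with the largest epididymal contrast among those above background. Its signal was 618, 557 and 549 in inguinal GFP+, 368, 433 and 409.8 in inguinal GFP-, 804, 773 and 839.8 in epididymal GFP+ and 265, 256 and 274 in epididymal GFP- cells. No group overlapped another, and epididymal GFP+ was the highest and epididymal GFP- the lowest. GFP+ cells were higher by 0.50 ± 0.08 in inguinal (limma adjusted p = 0.000387) and by 1.55 ± 0.08 in epididymal cultures (limma adjusted p = 1.08e-10), and the contrasts differed (-1.05 ± 0.11, limma adjusted p = 1.38e-06). The depot difference had opposite signs, -0.48 in GFP+ (limma adjusted p = 9.94e-05) and 0.58 in GFP- cells (limma adjusted p = 1.09e-05).

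Adam19, a sheddase of neuregulins, turned over between the depots. It was lower in inguinal GFP+ than GFP- cells, at 6881 ± 196 against 7890 ± 218 (-0.20, limma adjusted p = 0.00146), and higher in epididymal GFP+ cells, at 9764 ± 131 against 5718 ± 312 (0.77 ± 0.04, limma adjusted p = 4.25e-11). The interaction was -0.97 ± 0.05 (limma adjusted p = 3.84e-10). A second Adam19 probe set gave -0.15 with no call in inguinal and a called 1.00 in epididymal cultures.

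Of the 5 ADAMTS hyalectanases measured, which cut aggrecan and versican, Adamts8 and Adamts15 were near background with no called contrast, and the other 3 did not move together. Adamts5 was higher in GFP+ cells of both depots, at 6129 ± 618 against 5195 ± 172 in inguinal (0.23 ± 0.05, limma adjusted p = 0.00753) and 10336 ± 117 against 5672 ± 221 in epididymal cultures (0.86 ± 0.05, limma adjusted p = 1.28e-09). The inguinal call was lost without a variance trend (limma adjusted p = 0.0602) and with only the groups compared in the fit (limma adjusted p = 0.0503). Adamts4 was higher in epididymal GFP+ cells, at 1937 ± 109 against 999.5 ± 146 (0.95 ± 0.08, limma adjusted p = 7.45e-08), while its inguinal contrast was not called (0.14, limma adjusted p = 0.344). Adamts1, which also binds VEGF, went the other way in epididymal cells: 4542 ± 84.1 in GFP+ and 5696 ± 366 in GFP- (-0.32, limma adjusted p = 0.00298). In inguinal cells it was higher in GFP+, at 5732 ± 849 against 4156 ± 180 (0.45 ± 0.08, limma adjusted p = 0.000847), and the interaction was 0.78 ± 0.11 (limma adjusted p = 3.59e-05). The GFP contrasts of Adamts4 and Adamts5 also differed between depots, by -0.81 (limma adjusted p = 3.5e-05) and -0.63 (limma adjusted p = 5.61e-06).

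Mesothelial markers moved with the epididymal contrast too. Of the 11 measured, 10 were lower and none higher in epididymal GFP+ than GFP- cells, and their summed signal was 7444 to 7715 against 40393 to 43118. Krt7 and Cdh1 were near background in epididymal GFP+ cells, and only Cdh1 was in GFP- cells. Of the 16 macrophage and leukocyte markers, 2 were higher and 8 lower in epididymal GFP+ cells, with overlapping sums of 3943 to 4241 and 3726 to 4195. The 2 higher were Cd53, at 905 against 208, and Csf1r, at 1065 against 504. The 8 lower included Lyz2, at 419 against 805, and Cd14, at 415 against 784. The summed signal of the mural cell markers was 120711 to 122889 in GFP+ against 107196 to 109150 in GFP- cells. Of the 10, 5 were higher: Pdgfrb (1.72), Myh11 (0.79), Rgs5 (0.64, near background in both groups), Cnn1 (0.36) and Notch3 (0.27). Mcam (-0.32), Des (-0.26) and Acta2 (-0.11) were the 3 lower. Pdgfrb alone had means of 13349 in GFP+ and 4042 in GFP- cells. Among 9 endothelial markers, 2 were lower in GFP+ cells, Kdr (-2.98) and Esam (-2.59). The 2 higher were Cdh5 (1.88) and Emcn (1.02, near background in all groups). The summed signal of the 9 was 1102 to 1195 in GFP+ against 5456 to 5670 in GFP- cells. The part of these cell types in the epididymal differences of Mmp11, Mmp3, Adam23, Adam19, the ADAMTS genes and the TIMPs was not tested.

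**Figure D5:**
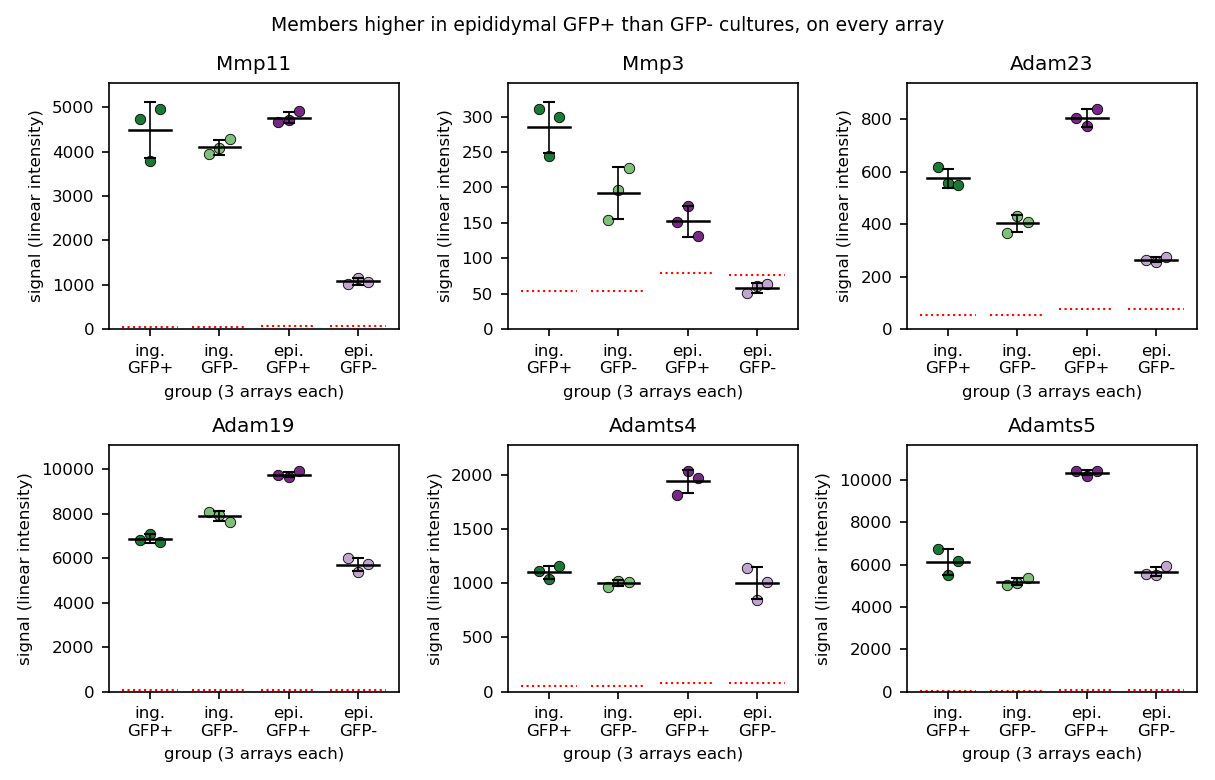
Signal of Mmp11, Mmp3, Adam23, Adam19, Adamts4 and Adamts5 on each array (points; horizontal bar, mean; whiskers, SD of 3 arrays), on linear axes from 0, with background as red dotted lines. In every panel the epididymal GFP+ arrays lie above the epididymal GFP- arrays, while the inguinal fractions overlap for Mmp11 and lie the other way round for Adam19.

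Other ADAMTS genes differed by depot. Adamts7, which cuts cartilage oligomeric matrix protein, was 145 ± 28.3 and 170.5 ± 4.93 in inguinal GFP+ and GFP- cells, and 213 ± 18.7 and 345 ± 15.6 in epididymal ones. It was lower in inguinal cells by -0.52 in GFP+ (limma adjusted p = 0.0032) and -0.95 in GFP- cells (limma adjusted p = 9.9e-06), and lower in epididymal GFP+ than GFP- cells (-0.66 ± 0.13, limma adjusted p = 0.000525). Adamts10, a protease that binds fibrillin microfibrils, was 236 ± 52.5 and 237 ± 3.49 in inguinal against 346 ± 11.5 and 336 ± 28.8 in epididymal cells (-0.55, limma adjusted p = 0.00239, in GFP+ and -0.47, limma adjusted p = 0.00598, in GFP- cells). Without inguinal GFP+ replicate 2 the Adamts10 difference in GFP+ cells was -0.36 (limma adjusted p = 0.00844). Neither gene had a called inguinal GFP contrast.

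The widely expressed sheddases Adam10 and Adam17 differed between the sorted fractions by small amounts, if at all. Adam10, which releases Notch ectodomains and many other surface proteins, was lower in GFP+ cells of both depots (-0.17, limma adjusted p = 0.000462, and -0.15, limma adjusted p = 0.000372), but not for the mean of its probe sets (limma adjusted p = 0.0655 and 0.0755). Its larger difference was between depots, with 5845 ± 76.7 against 8744 ± 189 in GFP+ (-0.58, limma adjusted p = 8.12e-11) and 6572 ± 89.3 against 9675 ± 268 in GFP- cells (-0.56, limma adjusted p = 4.61e-11). Adam17, which releases tumour necrosis factor and ligands of the epidermal growth factor receptor, had group means of 1945 to 2106 and no called GFP contrast in either depot (0.11, limma adjusted p = 0.079, and -0.08, limma adjusted p = 0.114). Both were called after median centring (0.15 and -0.12), and the inguinal one without inguinal GFP+ replicate 2 (0.15, limma adjusted p = 0.012). The 2 contrasts differed from each other by 0.19 (limma adjusted p = 0.012). The small depot difference of Adam17 in GFP+ cells (0.11, limma adjusted p = 0.0337; 0.19 after median centring) was lost without inguinal GFP+ replicate 1 or 3 or any epididymal GFP+ replicate (limma adjusted p 0.0547 to 0.136), and a depot difference in GFP- cells was called without inguinal GFP+ replicate 2 (-0.09, limma adjusted p = 0.0387).

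Adam9, a widely expressed active ADAM, was lower in epididymal GFP+ than GFP- cells, at 15326 ± 128 against 17101 ± 203 (-0.16, limma adjusted p = 2.79e-05). In inguinal cells the call in the other direction (0.08 ± 0.02, limma adjusted p = 0.0322) was lost without inguinal GFP+ replicate 1 or 2 or GFP- replicate 2 or 3 (limma adjusted p 0.0761 to 0.149). It was also lost without a variance trend (limma adjusted p = 0.15) and with only the groups compared in the fit (limma adjusted p = 0.0942). Adam12, a protease of muscle and fat precursors that cuts insulin-like growth factor binding proteins, was lower in inguinal cells of both fractions, at 3722 ± 289 against 4997 ± 93.8 in GFP+ (-0.43, limma adjusted p = 1.32e-06) and 3425 ± 81.3 against 4734 ± 165 in GFP- cells (-0.47, limma adjusted p = 2.88e-07). Its inguinal GFP contrast was called only without inguinal GFP+ replicate 2 (0.18, limma adjusted p = 0.0021) or after median centring (0.15, limma adjusted p = 0.0311).

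Adam15, an ADAM with an integrin-binding motif, depended on the probe set. The brightest probe set read 2740 ± 151, 3027 ± 33.4, 3596 ± 89.7 and 3606 ± 163 in GFP+ and GFP- cells of inguinal fat and then GFP+ and GFP- cells of epididymal fat. Its inguinal call (-0.14, limma adjusted p = 0.0323) was lost without inguinal GFP+ replicate 1 or 2 or any inguinal GFP- replicate (limma adjusted p 0.0725 to 0.122). That call was also lost after median centring, without a variance trend and with only the groups compared in the fit (limma adjusted p 0.061 to 0.116). The brightest probe set gave an epididymal contrast of -0.00 (limma adjusted p = 0.965). There the 3 other probe sets gave called values of 0.62, 0.51 and 0.48, and the mean of all its probe sets gave 0.40 (limma adjusted p = 3.87e-05). Its depot difference in GFP- cells was -0.25 (limma adjusted p = 8.56e-05), and turned to 0.12 for the mean of the probe sets (limma adjusted p = 0.0981).

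Adam4, a testis ADAM by its usual description, was dim but above background in all 4 groups, and lower in inguinal than epididymal cells: 69.7 ± 22.4 against 120 ± 19.7 in GFP+ (-0.69, limma adjusted p = 0.00701) and 77.7 ± 13.1 against 145 ± 9.99 in GFP- cells (-0.79, limma adjusted p = 0.00249). Adam33, known as a gene of airway smooth muscle and fibroblasts, lay at 69.5 to 85.7, near background in epididymal GFP+ cells, with no called contrast. Adam5, another testis ADAM, passed the background limit in inguinal GFP- cells alone (67.7 ± 9.83) and had no called contrast with all arrays. Its epididymal GFP+ signal was similar (64.4 ± 10.7) but under the higher limit there (78.7). Inguinal GFP+ replicate 2 read lowest of its group for 21 of the 33 members. Without that array 3 Adam5 contrasts were called, the inguinal GFP contrast at -0.73 (limma adjusted p = 0.0487).

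The 18 members near background in all 4 groups were Adam2, Adam3, Adam7, Adam11, Adam18, Adam21, Adam22, Adam24, Adam25, Adam28, Adam34, Adamts8, Adamts15, Mmp1a, Mmp1b, Mmp7, Mmp8 and Mmp20. Many are known from testis, brain, tooth or neutrophils: Mmp20 is the enzyme of tooth enamel, Mmp8 the collagenase of neutrophils and Adam2 a sperm protein. Their group means ran from 2.78 to 65.7. Of these, 4 (Adam18, Adam24, Mmp1b and Mmp8) had a called contrast, and the values behind it were below the background limit. With Mmp1a, Mmp1b and Mmp8 near background, Mmp13 was the only one of the 4 interstitial collagenases measured that rose above it in any group.

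Genes that act on or beside these proteases were counted from a list of 46, of which 40 were measured. In inguinal cultures 5 were higher and 4 lower in GFP+ than in GFP- cells (22.5%; 12.6% of all genes), and in epididymal cultures 19 were higher and 9 lower (70%; 41.9% of all genes). Among the inhibitors outside the TIMPs, Serping1, the inhibitor of complement C1 proteases, was higher in epididymal GFP+ cells (29203 against 14231; 1.04 ± 0.07, limma adjusted p = 4.63e-09), and Reck, a membrane inhibitor of MMPs, was higher in GFP+ cells of both depots (0.29 ± 0.06, limma adjusted p = 0.00324, and 0.58, limma adjusted p = 6.45e-07). Of the 4 plasminogen genes, 2 were higher and 1 lower in epididymal GFP+ cells. Plau (urokinase), which makes the plasmin that activates pro-MMPs, had means of 3427 against 926 (1.87 ± 0.07, limma adjusted p = 2.25e-12).

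Of the 4 convertases that activate Mmp11, membrane-type MMPs and ADAMs, 2 were higher and 1 lower in epididymal GFP+ than GFP- cells. Pcsk5 was higher in GFP+ cells, at 1087 against 122 (3.0 ± 0.14, limma adjusted p = 4.11e-11). Furin was higher too, at 658 against 426 (0.61, limma adjusted p = 3.92e-05). Pcsk6 was lower in epididymal GFP+ cells (-1.78 ± 0.09, limma adjusted p = 1.04e-10) and higher in inguinal GFP+ cells (0.42, limma adjusted p = 0.00495). Of 10 measured inducers, sheddase cofactors and clearance receptors, none was called in inguinal cultures, against 12.6% of all genes. In epididymal GFP+ cells 3 were higher and 4 lower, where 41.9% of all genes were called. The lower ones included Tspan5, a tetraspanin partner of ADAM10 (-1.43 ± 0.07). Among the 5 astacins and procollagen enhancers, Pcolce2 was lower in inguinal GFP+ cells (-2.02 ± 0.10, limma adjusted p = 2.74e-09) and higher in epididymal GFP+ cells (1.38, limma adjusted p = 1.53e-08). Among 10 other matrix and cell-surface proteases, 6 were higher and 2 lower in epididymal GFP+ cells, again against 41.9% of all genes called. Htra3, a secreted serine protease, was higher by 3.13 ± 0.08 and Dpp4, a surface peptidase of fibroblast progenitors, lower by -2.47 ± 0.25. The 3 ADAMTS-like genes measured had 1 called lower in inguinal GFP+ cells, Adamtsl4 (-0.59, limma adjusted p = 0.00719), and 1 called higher in epididymal GFP+ cells, Papln, which was near background in all groups.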

How the data were processed

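RNA of 12 samples was labelled with biotin and hybridised to Affymetrix arrays, per the labels. The authors deposited a linear intensity for each probe set; which signal algorithm and scaling they used was not stated in the labels. Of 22626 probe sets, 20380 had 1 gene symbol, 691 several and 1555 none; only the first kind was used, with symbols updated by Entrez ID for 20351. The probe set with the highest mean of log2(intensity + 16) stood for its gene, with no further normalization; fold changes on this scale understate dim genes. All 12 arrays were fitted with limma 3.58.1 (lmFit, eBayes with a trend) in R 4.3.3, with Benjamini-Hochberg adjustment over 12393 genes and calls under 0.05. The code was tested on simulated data. Members near background in all groups were only named; those with a called log2 change of at least 1 and a higher group above background have each array's value, and Mmp13, just under that size, was added after its values were seen. In each partner group up to 2 genes with the largest called GFP contrast were eligible to be named, and Furin was added after its values were seen. Members, lists and tests were chosen with earlier results of these data known. Deviations from the group means were hardly correlated between arrays of the same replicate number (-0.057 to 0.044). Whether such arrays share an animal or a sort is not in the labels, and these correlations cannot decide it. The number of arrays limits the precision. Alternatives were quantile normalization, median centring, added constants of 1 and 64, weakly detected genes (under log2 6.55) left out, no variance trend, all probe sets of a gene averaged, only the compared groups, a replicate block, and leaving out each array.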

Additional observations from a re-analysis of the deposited data

Results flagged for a closer look

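The GFP contrast (GFP+ against GFP-, log2 scale) differed between depots for 18 members by the interaction test of the limma fit, 17 of them above background in some group. The difference, inguinal minus epididymal, was positive for 6: Adamts1 at 0.78, Timp2 at 0.36, Timp3 at 0.33, Adam9 at 0.24, Adam17 at 0.19 and Mmp14 at 0.15. It was negative for 12, led by Mmp12 at -2.37, Mmp11 at -2.00 and Adam8 at -1.77. Adam23 followed at -1.05, Adam19 at -0.97, Adamts4 at -0.81, Mmp3 at -0.64 and Adamts5 at -0.63. The smaller negative differences were -0.33 for Timp1, -0.31 for Mmp23 and -0.30 for Mmp17. Mmp8, at -0.95, was near background in every group, so its difference lies among signals that cannot be read above background. The difference was called for 35.3% of members and 34.8% of all genes.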

How the results depend on the processing

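Over 21 alternatives, 17 of the 101 called pairs of gene and contrast among the 33 members above background lost their call at least once, and 19 uncalled pairs gained one; the cause was not tested. The 1 called value that turned sign was Adam15 between depots in GFP- cells (0.12 for the mean of its probe sets). The 6 members called higher in the inguinal GFP contrast became 3 without a variance trend and 3 with only the compared groups in the fit. Leaving out 1 array at a time gave 4 to 8 higher and 7 to 11 lower for the inguinal GFP contrast, 8 to 10 and 9 to 11 for the epididymal one, 6 to 8 and 10 to 13 for their difference, 5 to 6 and 19 to 21 between depots in GFP+, and 10 and 17 to 19 in GFP- cells. With a replicate block the counts were 6 and 8, 9 and 11, 6 and 12, 6 and 20, and 10 and 18. The inguinal call of Mmp13 was then lost (limma adjusted p = 0.053). Scaling moved the median of all genes by at most 0.08. Signals under the background limits carry no usable order, which limits what can be said of the 18 dim members and of Mmp12, Mmp13, Mmp16 and Mmp3 in their lower groups.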
